A study of Branchiostoma belcheri with 3 samples.

Results

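miR-216 and miR-217 are a pair of microRNAs that were measured here in 3 organs of Branchiostoma belcheri, an amphioxus, which is an invertebrate relative of the vertebrates that lives in marine sand. On the arrays of the hepatic caecum and the intestine their best matching probes gave densities several times smaller than on the gill array, which also had the highest density for most of the probes detected on all arrays. Between the digestive organs, miR-217 densities in hepatic caecum were more than 2 times those in intestine, while those of miR-216 overlapped. The direction for miR-217 was kept under 6 of 7 ways of scaling the arrays and turned when they were centred on 5S rRNA. The members were all miRNA probes, of any species, whose name carries the number of miR-216 or miR-217, whatever their values. They came to 14 of the 1686 miRNA probes on the array, 9 for miR-216 and 5 for miR-217, and to 2 of 667 miRNAs by number.

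The hepatic caecum, a blind pouch of the gut, the intestine and the gill were each represented by 1 array with 1 RNA sample. Per the labels, the organs came from 5 adults, of no stated age or sex, that had been taken from the sea and fed on algae. No treatment is given, and how the tissue of these animals was combined is not given in the sources used here. Organ and array therefore cannot be told apart, no test between organs was possible, and each error of a density is the SD of the 2 spots of a probe on 1 array. For a log2 difference, the spot SDs of both arrays on that scale were combined in quadrature. In whole organs, fewer cells of a type and less RNA per cell cannot be told apart either.

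miRNAs are short RNAs that pair with messenger RNAs, mainly through their seed (bases 2 to 8), and lower the output of those messengers. Each is cut from a hairpin with a 5p and a 3p arm, one of which usually accumulates. In vertebrates the genes of miR-216 and miR-217 lie close together on the genome, and in mammals both miRNAs are known from the exocrine pancreas, where acinar cells make digestive enzymes. Amphioxus has no separate pancreas, and cells that make digestive enzymes line its hepatic caecum and gut. In mammalian cells, the deacetylase SIRT1 is a reported target of miR-217.

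The probes of the miR-216 5p arm are shown because their shared sequence decides how many separate measurements they are. The seed is in capitals, and the sequences are the targets given in the deposited scanner files.
bfl-miR-216-5p: uAAUCUCAgcuggcaacugugag
dre-miR-216a: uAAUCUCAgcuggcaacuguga
xtr-miR-216: uAAUCUCAgcuggcaacugug
pma-miR-216a-5p: cAAUCUCAgcuggcaacugugag
cin-miR-216: uAAUCUCAgcuggcaaucuguga
dre-miR-216b: uAAUCUCUgcaggcaacuguga
pma-miR-216b: aAAUCUCUgcaggcaacugugga

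The prefixes stand for the amphioxus Branchiostoma floridae (bfl), the zebrafish (dre), the frog Xenopus tropicalis (xtr), the lamprey (pma) and the sea squirt Ciona (cin). Positions are counted from 1 at the 5′ end, with the base of the B. floridae probe first. The zebrafish miR-216a target is identical to the amphioxus one over its 22 bases and the frog target over its 21 bases. The lamprey miR-216a-5p target differs by U1C alone, outside the seed. The Ciona target is identical for 16 bases and then holds 1 extra base. The miR-216b targets of zebrafish and lamprey both carry A8U, in the seed, and U11A, and the lamprey one also has U1A, A22G and G23A. Of these 7 probes, 5 thus share the seed AAUCUCA, and the other two have AAUCUCU.

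The miR-217 probes were alike in the same way, and 1 probe of the 3p arm carries the B. belcheri sequence.
bfl-miR-217: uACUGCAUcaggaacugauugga
dre-miR-217: uACUGCAUcaggaacugauugg
xtr-miR-217: uACUGCAUcaggaacugauuggau
cin-miR-217: uACUGCAUuaggaacugauugg
bbe-miR-217-3p: aAUCUGUUccucaugcauggcu

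The zebrafish miR-217 target is identical to that of B. floridae over its 22 bases, and the frog target holds all 23 bases of it and 1 more. The Ciona target differs by C9U, the first base after the seed. Among the members only bbe-miR-217-3p carries a B. belcheri (bbe) sequence. Of the 1672 other miRNA probes, 0 had the seed of a member or lay within 4 edits of one, so no probe of another number had a closely related target. Probes that differ by so little can bind the same RNA, and the 12 probes above amount to few independent measurements.

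Detection meant a probe density, averaged over its spots, more than 3 SDs above the average of the 304 spots that hold no probe. These thresholds were 618 for hepatic caecum, 220 for intestine and 139 for gill, in the density units of the scanner, with background included. The hepatic caecum array was read with its grid turned by 180 degrees. In that placement its 596 control spots correlated on the log2 scale with the mean of the other arrays at r = 0.977, beside 0.261 under the deposited names, and its miRNA spots at 0.870, beside 0.01. Under the deposited names the blank spots of hepatic caecum would have an SD of 6819 and its threshold would be 22217. By that threshold 0 of the 14 members would be detected there, beside 0.237% of all miRNA probes. All values of this organ therefore rest on the turned grid. No member spot reached the top of the scanner range, and the SDs of blank spots differed (144 for hepatic caecum, 34.9 for intestine, 10.6 for gill), so dimmer probes could be called on the gill array.

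Of the 14 members, 7 were detected in hepatic caecum, 8 in intestine and 12 in gill. Among all 1686 probes the shares were 7.18% for hepatic caecum, 11.9% for intestine and 27.0% for gill. By number, miR-216 had 4 of 9 probes detected in hepatic caecum, 5 in intestine and 7 in gill. miR-217 had 3 of 5 in hepatic caecum, 3 in intestine and 5 in gill. On all arrays 7 of 14 members were detected, beside 6.88% of the 1686 probes. These were the B. floridae, lamprey, frog and zebrafish miR-216a or miR-216 5p probes and the B. floridae, zebrafish and frog miR-217 probes, all without a difference from the amphioxus target other than at the first base or the 3′ end. Each of the 7 had its highest density in gill, as had 91 of all 116 probes detected on the 3 arrays (78.4%).

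The amphioxus 5p probe bfl-miR-216-5p read 1847 and 872 in hepatic caecum, 1791 and 1686 in intestine and 13876 and 14417 in gill. The gill spots lay far above all others, and the hepatic caecum spots lay 1 above and 1 below the intestine spots. The lamprey probe pma-miR-216a-5p averaged 1375 ± 163 in hepatic caecum, 1571 ± 118 in intestine and 12490 ± 729 in gill. For xtr-miR-216 the densities were 2190 ± 523 in hepatic caecum, 2088 ± 185 in intestine and 16426 ± 346 in gill. Gill was thus first for these probes, with the digestive organs apart by less than the sum of their spot SDs. The hepatic caecum mean was below that of intestine for bfl-miR-216-5p and pma-miR-216a-5p and above it for xtr-miR-216. The zebrafish probe dre-miR-216a averaged 2425 ± 888 in hepatic caecum, 1932 ± 1031 in intestine and 17873 ± 643 in gill. Its intestine spots read 2661 and 1203 and its hepatic caecum spots 3052 and 1797, so spots of this probe overlapped widely between these organs.

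The amphioxus probe bfl-miR-217 read 2338 and 2183 in hepatic caecum, 949 and 976 in intestine and 18401 and 17879 in gill. Its spots fell into 3 groups without overlap, in the order gill, hepatic caecum, intestine. For dre-miR-217 the densities were 3392 ± 62.7 in hepatic caecum, 1381 ± 25.6 in intestine and 21567 ± 940 in gill. For xtr-miR-217 they were 2523 ± 405 in hepatic caecum, 1163 ± 153 in intestine and 21612 ± 117 in gill. The frog and zebrafish probes kept the order of the amphioxus probe, again with no overlap of spots between organs. Their targets differ from the amphioxus one only at the 3′ end, so these are hardly separate measurements. How many of all probes had spots apart in this way was not counted.

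**Figure D1:**
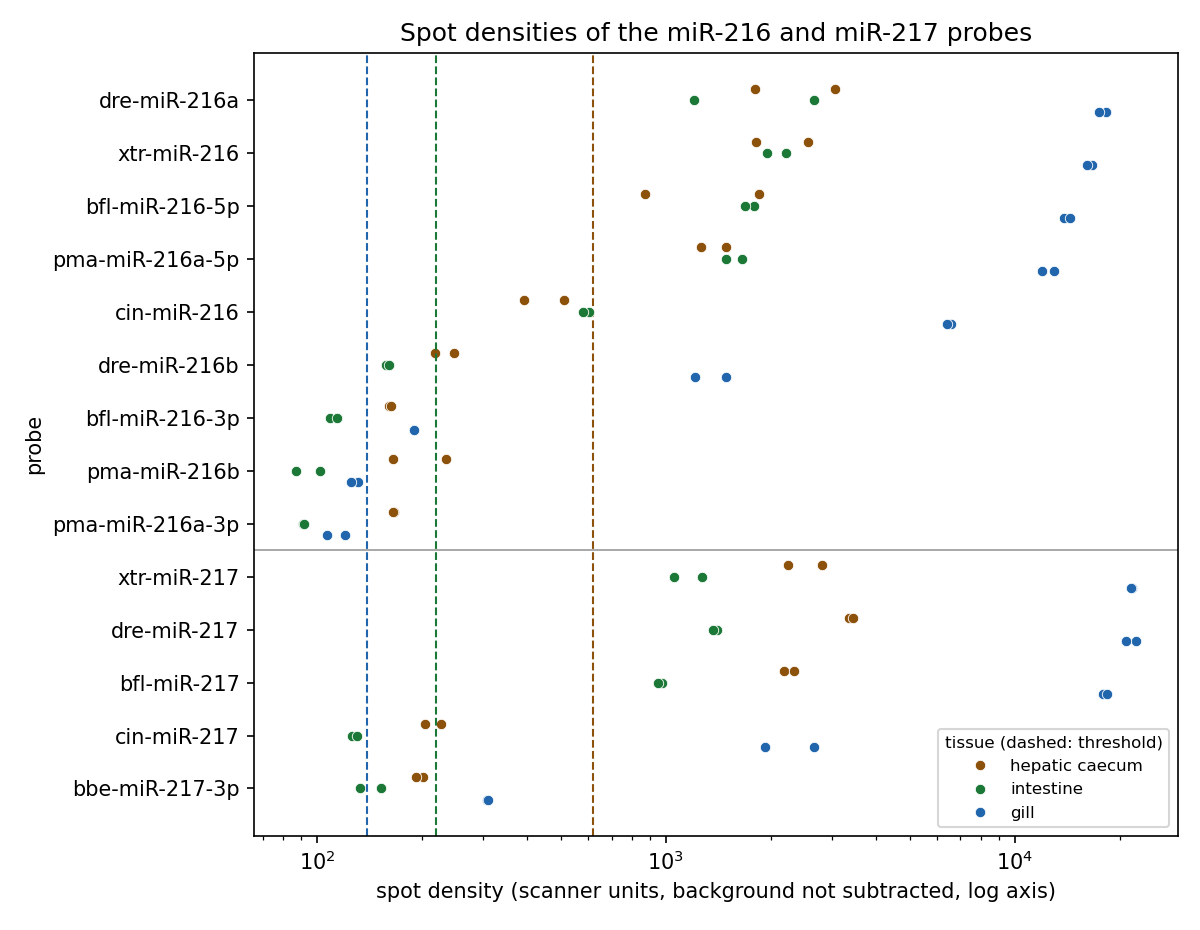
Density of each of the 2 spots of the 14 probes (rows) on a log axis in scanner units, for hepatic caecum (brown), intestine (green) and gill (blue), with the detection threshold of each array dashed in its colour. For the 7 probes detected on all arrays, gill means lie between 12490 and 21612 and spots of the digestive organs between 872 and 3436, and among these only for miR-217 are hepatic caecum and intestine apart.

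Probes with bases that differ inside the target were detected on fewer arrays. On gill, dre-miR-216b read 1485 and 1214, and cin-miR-217 averaged 2287 ± 517. In hepatic caecum and intestine neither passed its threshold, with means of 232 for dre-miR-216b and 214.9 for cin-miR-217 in hepatic caecum, and of 160 and 128 in intestine. The Ciona miR-216 probe averaged 452 ± 82.8 in hepatic caecum, not detected there, 591 ± 18.4 in intestine and 6472 ± 127 in gill. The lamprey miR-216b probe was detected on none of the arrays, at 200 in hepatic caecum, 94.8 in intestine and 128 in gill. Densities of different probes also depend on how well each binds, so no level of miR-216b in amphioxus follows from these values.

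The probes of the opposite arms were detected in gill or not at all. The B. belcheri probe bbe-miR-217-3p averaged 197 ± 6.8 in hepatic caecum, 142.5 ± 13.8 in intestine and 309 ± 1.56 in gill, where alone it was detected. The probe bfl-miR-216-3p averaged 162 ± 1.83 in hepatic caecum, 112 ± 3.73 in intestine and 190 ± 0.49 in gill, again detected in gill alone. The lamprey miR-216a-3p probe, with 166 in hepatic caecum, 91.5 in intestine and 114 in gill, was not detected. The gill densities of bbe-miR-217-3p and bfl-miR-216-3p lay below the hepatic caecum threshold, and that of bfl-miR-216-3p lay below the intestine threshold too, so equal densities there would have gone undetected.

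Intestine was compared with gill first. Intestine densities above the blank spots were smaller than those of gill for all 8 members detected in both. The ratio of gill over intestine ran from 8.27 to 13.4 for the 5 miR-216 probes and from 17.0 to 21.3 for the 3 miR-217 probes, and these ranges did not overlap. After quantile normalization, which gives the arrays the same distribution of levels, the median log2 difference of intestine minus gill was -0.39 for miR-216 and -1.82 for miR-217. A difference was counted when it reached 2-fold, a log2 difference of 1. By this count intestine was lower for 3 of 3 detected miR-217 probes and 0 of 5 miR-216 probes, beside 21.8% of the 197 probes detected in both organs. The values for miR-217 were -1.87 ± 0.04 for bfl-miR-217, -1.61 ± 0.07 for dre-miR-217 and -1.82 ± 0.19 for xtr-miR-217. Those for miR-216 lay between -0.75 and -0.14. Without normalization between arrays 5 of 5 miR-216 and 3 of 3 miR-217 probes were lower by 2-fold or more, as were 61.9% of the 197 probes.

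Quantile normalization raised the intestine levels as a whole, with a median of 0.45 over the 197 probes, and without any scaling between arrays that median was -1.62. The members are therefore also given relative to it. Relative to that median, the difference was -2.27 for miR-217 and -0.84 for miR-216. Under 6 other scalings the relative differences ran from -2.63 to -2.49 for miR-217 and from -1.42 to -1.25 for miR-216. Of those 6, 5 change an array by 1 factor only, so their relative values are equal by construction. Of the 4 probes detected in gill and not in intestine, cin-miR-217 was at least 2.76-fold higher in gill and dre-miR-216b at least 1.65-fold, and for the 3p probes no bound above 1 was obtained with quantile normalization. Under the other scalings these bounds ran from 2.29-fold to 12.3-fold for cin-miR-217 and from 1.35-fold to 7.26-fold for dre-miR-216b, while that of bbe-miR-217-3p reached 1.53-fold at most and that of bfl-miR-216-3p stayed under 1. A bound of 2-fold was reached by 8.91% of the 258 probes of this kind.

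Hepatic caecum against gill gave a smaller contrast for miR-217. Gill over hepatic caecum, in densities above the blank spots, was 7.93 to 12.0 for the 4 miR-216 probes and 6.69 to 9.20 for the 3 miR-217 probes, and these ranges overlapped. After quantile normalization the median log2 difference of hepatic caecum minus gill was -0.35 for miR-216 and -0.55 for miR-217, and 0 of the 7 probes reached 2-fold, beside 9.40% of 117 that were lower by that much and 41.0% that were higher. For dre-miR-217 the normalized level was 12.66 in both organs. The median over the 117 probes was 0.70, and relative to it the difference was -1.05 for miR-216 and -1.25 for miR-217. Under the other scalings these relative values ran from -1.35 to -1.31 for miR-216 and from -1.28 to -1.23 for miR-217. Whether the members passed 2-fold thus depended on the scaling, since without normalization between arrays 4 of 4 miR-216 and 3 of 3 miR-217 probes passed it, all lower in hepatic caecum, as did 74.4% of the 117 probes, whose median was then -1.77. The probe cin-miR-216, which passed its threshold in gill but not in hepatic caecum, was at least 2.03-fold higher in gill (2.94-fold to 38.8-fold under the other scalings), and cin-miR-217 at least 1.03-fold (1.02-fold to 13.4-fold). For dre-miR-216b, bbe-miR-217-3p and bfl-miR-216-3p, the other members detected in gill and not in the caecum, no bound above 1 was obtained with quantile normalization. Their highest bounds under the other scalings were 7.89-fold for dre-miR-216b, 1.66-fold for bbe-miR-217-3p and under 1 for bfl-miR-216-3p. Of 338 such probes, 8.58% reached a bound of 2-fold.

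The comparison of hepatic caecum with intestine set the miRNAs of the pair apart. miR-217 densities above the blank spots were 2.23 to 2.53 times as large in hepatic caecum as in intestine. For miR-216 the same ratio ran from 0.72 to 1.23 over 4 probes. After quantile normalization 3 of 3 miR-217 probes were more than 2-fold higher in hepatic caecum, with log2 differences of 1.32 ± 0.08 for bfl-miR-217, 1.61 ± 0.04 for dre-miR-217 and 1.22 ± 0.31 for xtr-miR-217. The 4 miR-216 probes lay between -0.28 and 0.32, and their errors ran from 0.21 to 0.99. Of the 116 probes detected in both organs 24.1% were higher in hepatic caecum by 2-fold or more, and 12.1% lower. The median of the miR-217 probes was 1.32 and that of the miR-216 probes -0.02, against 0.32 over the 116 probes. When the arrays were centred on 5S rRNA, which rested on 3 probes, the medians became -0.86 for miR-217 and -2.20 for miR-216, and that over the 116 probes -2.14. At 2-fold, 0 of the 3 miR-217 probes were then higher, beside 0.862% of the 116 probes. With centring on spike-in spots 0 of 3 were, beside 6.90%, and with centring on the shared median 2 of 3 were, beside 19.0%. Relative to the median of the 116 probes, miR-217 was higher in hepatic caecum under all 7 scalings, by 0.9999 with quantile normalization and by 1.18 to 1.27 with the other 6. Of these 6, the 5 that apply 1 factor per array give equal relative values by construction. One probe, cin-miR-216, was detected in intestine alone of this pair, with a bound of 1.21-fold in favour of intestine (1.02-fold to 5.35-fold under the other scalings), and 16.5% of 85 such probes reached 2-fold.

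**Figure D2:**
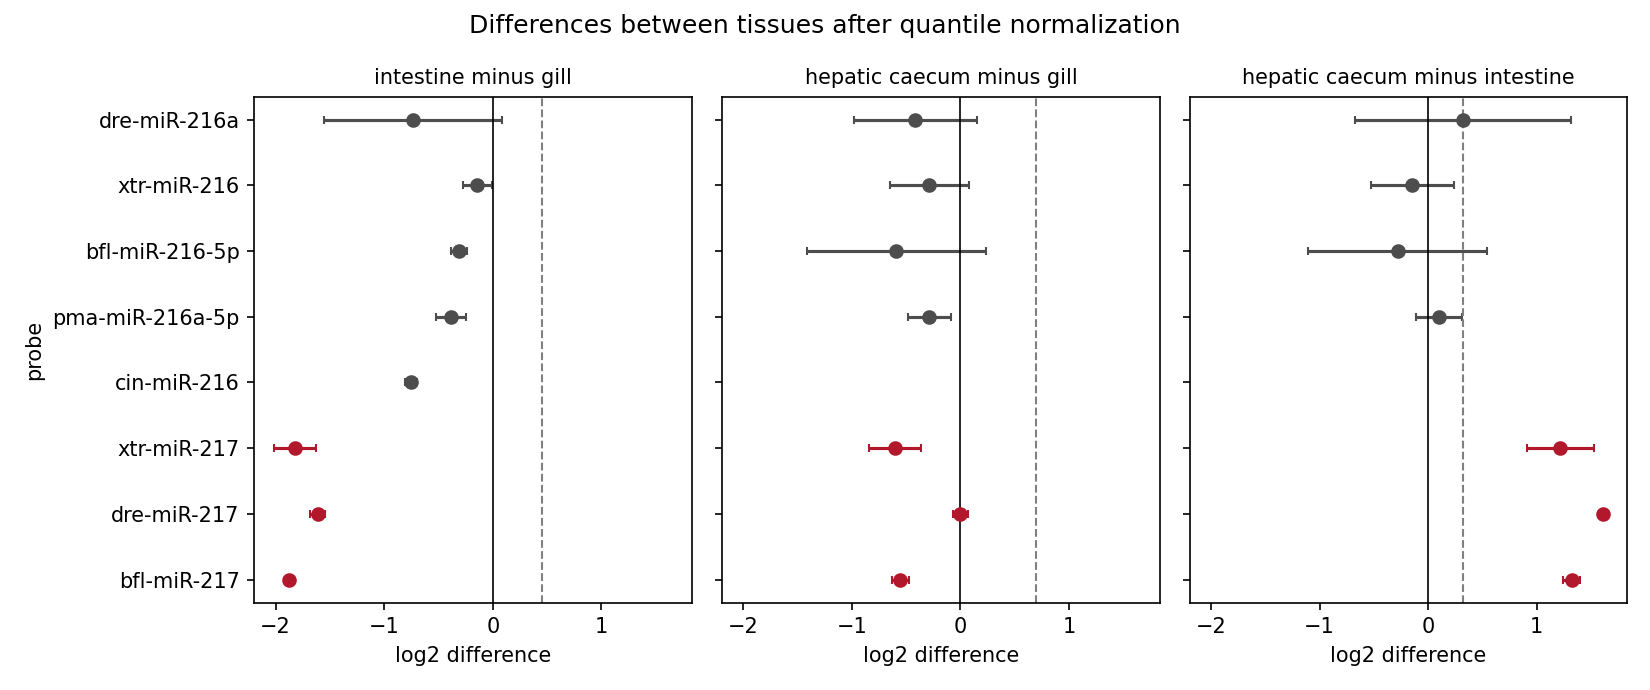
Log2 difference between organs after quantile normalization for each member (rows) detected in both organs of a pair, miR-217 in red and miR-216 in grey, with bars for the error from the repeat spots. The solid line is 0 and the dashed line the median of all probes detected in both (0.45, 0.70 and 0.32). The points of miR-217 lie apart from those of miR-216 on the left and on the right but not in the middle. On the left and right the bar of dre-miR-216a reaches that of a miR-217 probe.

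The difference between both miRNAs was also taken within each pair of organs, since a factor common to a whole array cancels from it. This contrast was chosen after the values had been seen. miR-217 minus miR-216 was -1.43 for intestine against gill, -0.20 for hepatic caecum against gill and 1.34 for hepatic caecum against intestine. The median spot errors of both miRNAs, combined in quadrature, came to 0.15, 0.47 and 0.61 for these contrasts. The other 6 scalings gave -1.24 to -1.21 in the first of these pairs, 0.07 to 0.08 in the second and 1.33 to 1.34 in the third, so the sign changed for hepatic caecum against gill alone. In each of the pairs that hold intestine, the probe ranges of miR-217 and miR-216 did not overlap with quantile normalization, with cyclic loess or without scaling. These ranges leave out the spot errors, and with quantile normalization the error of dre-miR-216a reached that of a miR-217 probe in each. How often other miRNAs differ from each other by as much was not counted. The 5 scalings by 1 factor per array, no scaling included, give the same contrast and overlap by construction. The probes of each miRNA here have nearly the same target. Intestine was thus the organ in which miR-217 was low beside miR-216, as measured on 1 array.

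**Figure D3:**
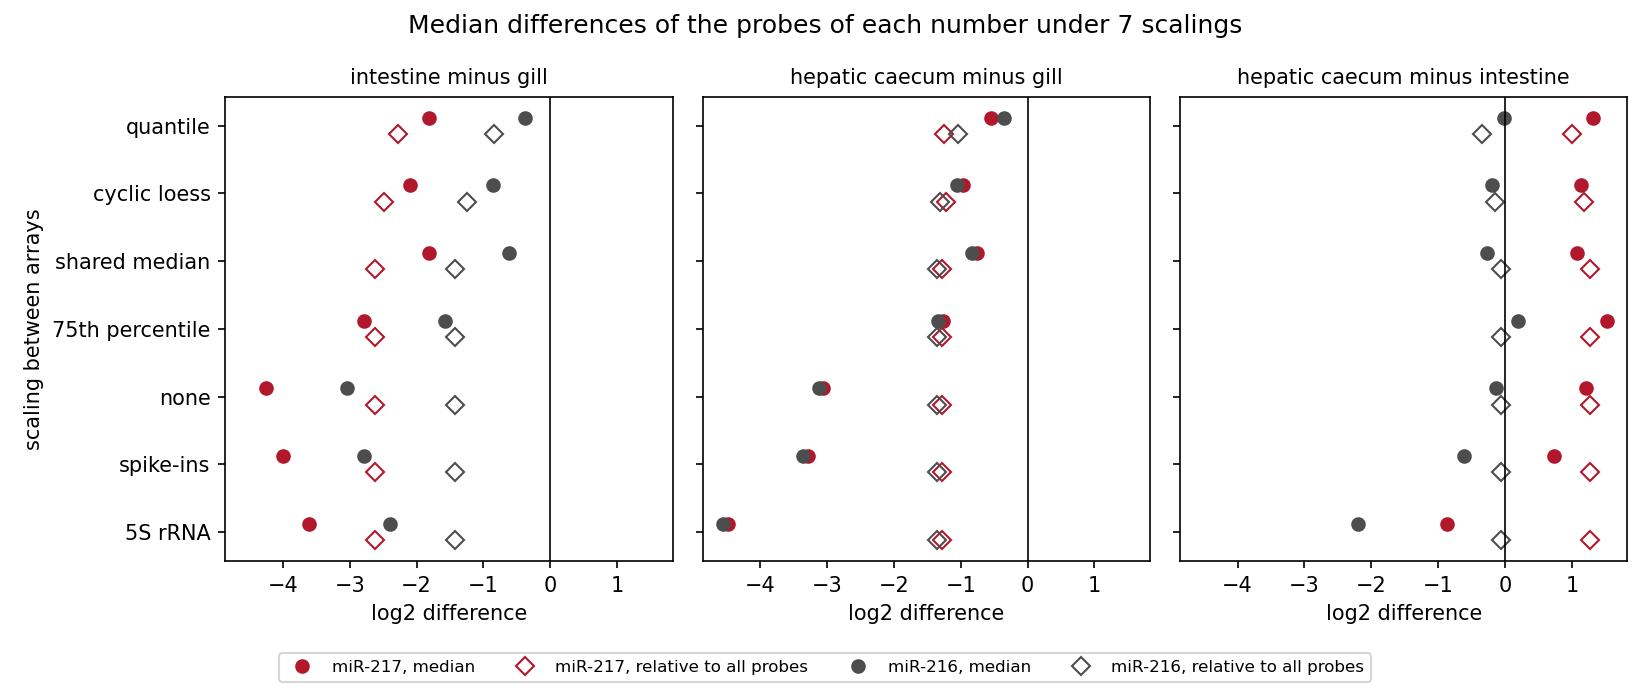
Median log2 difference of the detected probes of miR-217 (red) and miR-216 (grey) for each pair of organs under 7 scalings between arrays (rows), as the median itself (filled circles) and relative to the median of all probes detected in both organs (open diamonds). The filled circles shift with the scaling, from -4.25 to -1.82 for miR-217 in intestine against gill, and the diamonds for it stay between -2.63 and -2.27.

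The probes most like each miRNA over the organs were sought by the distance between mean-centred normalized log2 levels. They are the nearest 3 numbers among 109 other probes detected on all arrays, compared over only 3 levels, which share a normalization. For miR-216 these were dre-miR-125c at a distance of 0.15, bfl-miR-135a at 0.17 and bfl-miR-2063 at 0.19. The first of these, at 64983 in gill, was near the top of the scanner range of 65535. For miR-217 the nearest were bfl-miR-4866-5p at 0.39, bbe-miR-135a-5p at 0.45 and bbe-miR-200c-3p at 0.48. All 3 shared with miR-217 the density order gill, hepatic caecum, intestine, which is no separate result, since they were chosen by likeness to it. In the normalized levels bbe-miR-200c-3p was highest in hepatic caecum, at 0.66 above its mean against 0.38 for gill, while miR-217 had 0.33 in hepatic caecum and 0.72 in gill. A probe of miR-135 was near each of the pair. The probe near miR-216, bfl-miR-135a, had densities of 2737 in hepatic caecum and 3292 in intestine. The probe near miR-217, bbe-miR-135a-5p, had 2563 and 1698, so probes of 1 number differed in this way too.

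Other miRNAs known in vertebrates from pancreas, liver or gut had 32 probes. Of these, 1 was detected in hepatic caecum, 10 in intestine and 11 in gill, beside shares of 7.18%, 11.9% and 27.0% of all probes. All of these belonged to miR-375, known from pancreatic islets, and miR-7, known from endocrine and neural cells. The 14 probes of miR-148, miR-192, miR-194, miR-215 and miR-122 were detected in no organ, and miR-802 had 0 probes. In intestine against gill the 7 detected miR-375 probes had a median log2 difference of 1.28, with 6 of them past 2-fold in favour of intestine, and the 3 miR-7 probes had a median of -1.13, with 2 past 2-fold and lower in intestine, beside 39.6% of the 197 probes that were higher and the 21.8% that were lower. Under the other scalings the miR-375 median ran from -0.16 to 2.27 and the miR-7 median from -3.75 to -1.18.

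Detection of markers of other cell types is to be read beside the same shares of all probes, which are highest in gill too. Of 35 muscle miRNA probes 0 were detected in hepatic caecum, 4 in intestine and 15 in gill. Of 22 neural probes 1 was detected in hepatic caecum, 1 in intestine and 8 in gill, and of 56 sensory and ciliated probes 4, 4 and 24. The sensory and ciliated probes detected in hepatic caecum or intestine were all of miR-34. No probe of miR-133 or miR-206 (muscle) or miR-124 (neurons) was detected in hepatic caecum or intestine. The muscle probes detected in intestine were of miR-1. After quantile normalization 4 of 4 were at least 2-fold higher there than in gill, beside 39.6% of 197 probes. Before scaling, the highest miR-1 density was 726 in intestine and 748 in gill. The median over the 197 probes was 0.45 with quantile normalization and -1.62 without scaling between arrays. The miR-1 count was not repeated under other scalings. The neural probe detected in hepatic caecum and intestine was of miR-9. Its log2 differences for hepatic caecum, after quantile normalization, were 2.49 against gill and 2.46 against intestine. Its densities were 894 in hepatic caecum and 245 in intestine, beside thresholds of 618 and 220. They were not followed under the other scalings. For hepatic caecum minus gill, the median over the 117 probes was 0.70 with quantile normalization and -3.20 at its lowest under the others. At 2-fold, 41.0% of 117 and 24.1% of 116 probes were higher in hepatic caecum. Of 23 epithelial probes (miR-200, miR-141 and miR-429) 11 were detected in hepatic caecum, 12 in intestine and 17 in gill. Their densities above the blank spots, summed over detected probes alone, were 37582 in hepatic caecum, 16416 in intestine and 151415 in gill. The corresponding sums were 0, 2186 and 3035 for muscle, 709, 130 and 5824 for neural, and 4850, 12870 and 32514 for sensory and ciliated probes. Each sum leaves out probes under the threshold of its array, which was highest for hepatic caecum, and the arrays were not scaled. A sum of 0 thus means only that no probe passed, and sums of different organs are not on a common footing. For hepatic caecum minus intestine the 9 miR-200 probes detected in both had a median log2 difference of 1.21, which ran from -0.82 to 1.58 under the other scalings, and the 2 miR-141 probes one of 1.33, which turned to -1.001 under the scaling where it was lowest and reached 1.39 at most. The part of these cell types in the differences of miR-216 and miR-217 was not tested.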

How the data were processed

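The deposited scanner files hold the median spot intensity (density) in the single Cy3 channel, per the file headers, with background included. A deposited series table holds the authors' processed intensity values. Per the labels, RNA under 300 nt was tailed, tagged and hybridised. The hepatic caecum grid was turned by 180 degrees.

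Densities were corrected with normexp (offset 50), put on the log2 scale, averaged over the 2 spots of a probe and quantile normalized (limma 3.58.1, R 4.3.3, Python 3.11.15). These steps were also run on simulated arrays, scored for intestine against gill alone and relative to unchanged probes. Blank spots varied less there than on the real hepatic caecum and intestine arrays. The simulation therefore does not test hepatic caecum, detection at the real intestine threshold or the shift that quantile normalization adds. Detection required the mean of 304 blank spots plus 3 SD. Differences were counted at 2-fold among probes detected in both organs of a pair. Where 1 organ lacked detection, the bright level was set against the higher of the dim probe's level and the lowest detected one. With 1 array per organ no test was made, and the number of arrays limits the precision.

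All probes with the number 216 or 217 were named, with the 3 nearest probes of other numbers to each. The members and lists were chosen with earlier results of these data known. Alternatives were 6 other scalings, single spots, another offset and other detection rules, other probe subsets, the series table and the deposited names.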

Additional observations from a re-analysis of the deposited data

How the results depend on the processing

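No paired analysis was possible because each organ had 1 array. In all, 91 of the recomputed values stayed within their spot error or, for counts, within 1.5 times. The others follow, and the cause was not tested. Under the deposited names, where the threshold was 22217, 0 members were detected in hepatic caecum, beside 0.237% of all probes. With the turned grid it was 7, beside 7.18%. No difference of that organ could then be had. For intestine minus gill, the miR-217 median (-1.82) became -4.25 without normalization, -2.10 with cyclic loess, -2.78 with the 75th percentile, -4.00 with spike-in spots, -3.60 with 5S rRNA, -2.03 on the second spots, -1.99 in the deposited series table and -1.72 with a detection rule from the MAD. The miR-216 median (-0.39) became -3.04, -0.86, -1.57, -2.79 and -2.40 under the same 5 scalings, -0.61 with the shared median, -0.13 and -0.65 on the first and second spots, -1.06 in the table and -0.56 with the MAD rule. Their contrast (-1.43) became -1.24 with cyclic loess, -1.21 with the 5 other scalings and -1.63 on the first spots. For hepatic caecum minus gill, the miR-217 median (-0.55) became -3.06, -0.97, -1.27, -3.29 and -4.49 under those 5 scalings, -0.77 with the shared median, -0.44 on the first spots and -6.68 in the table. The miR-216 median (-0.35) became -3.13, -1.05, -1.34, -3.36 and -4.56, -0.84 with the shared median and -8.19 in the table. For hepatic caecum minus intestine, the miR-217 median (1.32) became 1.21, 1.13, 1.53 and 0.73 under the first 4 scalings, 1.07 with the shared median, 1.20 and 1.46 on single spots and 1.22 without a detection filter. It reversed to -0.86 with 5S rRNA and to -4.72 in the table, which follows the deposited names. The miR-216 median (-0.02) became -2.20 with 5S rRNA and -7.06 in the table.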

Other observations

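The authors' deposited table gives the members processed values whose scale and processing are not stated in the sources used here, with column medians of 5.41 for hepatic caecum, 5.33 for intestine and 6.88 for gill. In the authors' deposited table bfl-miR-216-5p had 11.15 in hepatic caecum, 2875.45 in intestine and 5994.54 in gill, and bfl-miR-217 had 1524.22, 1459.07 and 9451.55 in the same order of organs. In the authors' deposited table the zebrafish and frog miR-217 probes had 64.94 and 83.18 in hepatic caecum, 2194.36 and 2191.87 in intestine and 8704.53 and 8533.82 in gill. The 3 near-identical miR-217 targets thus disagreed with each other in the hepatic caecum column of the authors' deposited table, which follows the deposited spot names, and not in the other columns to this degree. With the turned grid the same 3 probes had densities of 2260, 3392 and 2523 in hepatic caecum. The lamprey miR-216b probe, not detected on any array here, had 749.38 for hepatic caecum in the authors' deposited table, against 1.69 for intestine and 12.05 for gill.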
